A study of Oryctolagus cuniculus with 6 samples.

Results

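The mitotic spindle and checkpoint genes examined here are 35 named genes whose products drive entry into mitosis, hold chromosomes to the spindle, delay anaphase until attachment is complete, or divide the cell. They were chosen by name, with earlier results of these data known. A gene was measured by the probe set for which it was the only gene symbol in the annotation of the array. Where there were several, the one with the highest mean over the 6 arrays was used. Of the 35 genes, 34 had such a probe set, each exactly 1, among 23364 probe sets in all. BIRC5 (survivin) was not analysed here.

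Transcripts of the whole thickness of the conjunctiva, with Tenon's capsule, were measured on Affymetrix Rabbit Gene 1.0 ST arrays. The DED group comprised 3 arrays of adult male Dutch-Belted rabbits with dry eye disease (DED), whose periorbital lacrimal glands had received concanavalin A (ConA), a T cell mitogen from the jack bean, on days 1, 8 and 14. The naive group comprised 3 arrays of rabbits of the same breed, sex and stage with no injection named in the sample records. The nictitating membranes had been removed surgically in both groups, and the tissue of both was compared at day 18. Each array held pooled RNA, of 3 animals (6 eyes) by the sample records, while the methods of the study give a smaller pool. The spread between arrays is therefore a spread between pools, and no group injected with vehicle was among these arrays.

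Mitosis is driven by cyclin-dependent kinase 1 bound to A- and B-type cyclins, with the polo-like and Aurora kinases acting on centrosomes, kinetochores and the spindle. Kinetochores that are not attached to microtubules keep the spindle assembly checkpoint active, which holds CDC20 and so the anaphase-promoting complex (APC/C), the ubiquitin ligase that destroys cyclin B and securin. Most of these transcripts are present at high levels only in cells that are in G2 or mitosis, and in conjunctiva the cells known to divide include those of the basal epithelium and activated leukocytes. The roles given here are known from human cells and other model organisms.

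The arrays were alike as a whole. Median log2 values of the arrays were between 6.18 and 6.2, and correlations across probe sets ran between 0.9938 and 0.9947 for arrays of 1 group and between 0.9883 and 0.9902 for arrays of different groups. Markers of conjunctiva were bright in both groups: mean log2 values in DED and naive conjunctiva were 11.30 and 10.88 for KRT4, 11.18 and 11.05 for KRT19, 10.66 and 10.81 for PAX6, and 9.87 and 10.11 for the goblet cell mucin MUC5AC. At an adjusted p under 0.05, 4.41% of all probe sets rose in DED and 2.69% fell (limma, adjusted over all 23364 probe sets).

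Of the 34 genes measured, 30 rose in DED and 0 fell, against the 4.41% and 2.69% of all probe sets. KIF23, AURKB, CENPA and CDCA8 did not pass the threshold. All 34 differences were positive, whereas 46.1% of all probe sets had a positive difference, and the median log2 fold change was 0.71, against -0.01 over all probe sets. In 32 of the 34 genes, each DED array was above each naive array, which held for 13.4% of all probe sets, and in 0 was each DED array below each naive array (14.5% of all probe sets). At an unadjusted p under 0.05, 32 of the 34 genes were higher and 0 were lower. Of all 23364 probe sets, 5122 had such a p in either direction, and the unadjusted counts below are to be read against that. By the one-way analysis of variance that the methods name, 20 genes were higher and 0 lower after the same adjustment. The same test called 831 of all probe sets higher and 571 lower. A fold of 1.5 or more was reached by 25 genes (2.21% of all probe sets), and a fold of 2 or more by CDK1, ASPM, MKI67 and CCNB2 (0.509% of all probe sets). With DED replicate 1 left out 20 genes rose, and with naive replicate 1 left out 25 did, with the other arrays in between. In 19 of the 30 genes the call held whichever array was left out.

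**Figure D1:**
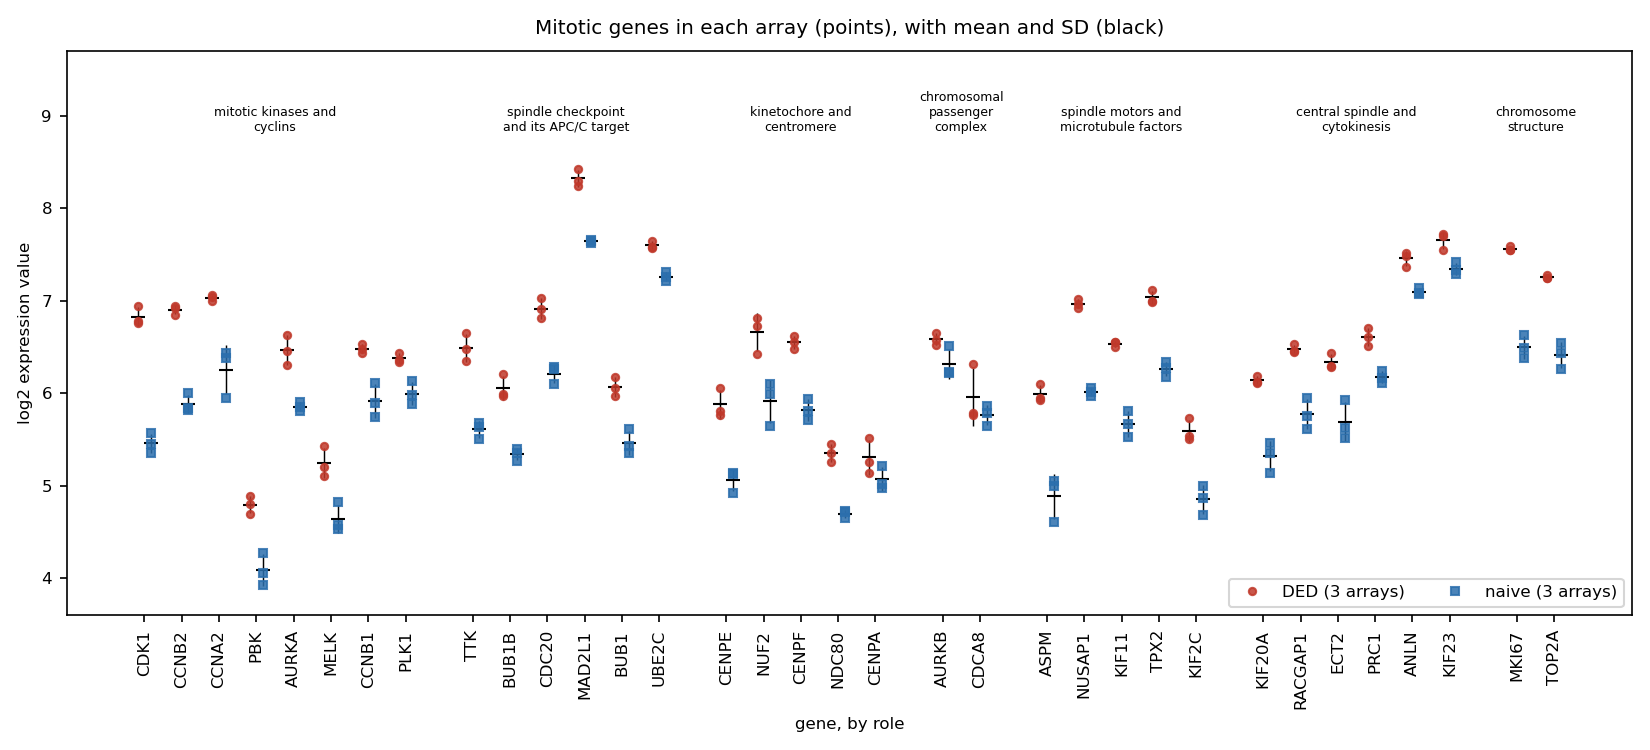
Log2 expression value (vertical axis) of each of the 34 genes, grouped by role and ordered within a role by the size of the change, on the 3 DED arrays (red circles) and to their right the 3 naive arrays (blue squares), with the mean and SD in black. The DED points stand above the naive points in 32 genes, by only 0.01 in AURKB, and they overlap in CENPA and CDCA8.

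Among the kinases and cyclins that start and sustain mitosis, all 8 measured genes rose in DED, with a median log2 fold change of 0.66. CDK1, the catalytic subunit of the mitotic kinase, read 6.95, 6.76 and 6.78 (log2) on the DED arrays, against 5.45, 5.36 and 5.57 on the naive arrays. Its lowest DED array stood 1.19 above its highest naive array. At 2.58-fold (log2 1.37, SE 0.08, 95% confidence interval 1.17 to 1.57, adjusted p = 4.52e-04, limma), this difference was the largest of the 34. CCNB2, a B-type cyclin that binds CDK1, had log2 values of 6.95, 6.85 and 6.92 in DED and 6.0, 5.84 and 5.82 in naive conjunctiva. The groups were 0.85 apart at their nearest arrays, and the transcript rose 2.03-fold (adjusted p = 7.69e-04). CCNB1, the other mitotic B-type cyclin on the list, gave 6.53, 6.44 and 6.48 in DED, against 5.74, 6.11 and 5.90 in naive tissue. Naive replicate 2 was its highest naive array and lay 0.33 below the lowest DED array, and the rise was 1.48-fold (adjusted p = 0.0219). CCNA2, cyclin A2, which acts in S phase and up to early mitosis, was nearly level among the DED arrays at 7.06, 7.0 and 7.04, while its naive values of 6.38, 5.95 and 6.44 were spread wider. It rose 1.71-fold (adjusted p = 0.019), with an SD of 0.03 in DED and 0.27 in naive arrays.

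AURKA, the Aurora kinase of centrosomes and spindle poles, read 6.46, 6.31 and 6.63 in DED and 5.91, 5.85 and 5.81 in naive conjunctiva. The groups did not overlap, and the rise was 1.53-fold (log2 0.61, SE 0.09, adjusted p = 0.0119). PLK1, the polo-like kinase needed for centrosome maturation and spindle assembly, had the smallest change of the 8, with 6.44, 6.36 and 6.34 in DED against 5.98, 6.13 and 5.88 in naive tissue. Its groups stood 0.21 apart, and it rose 1.30-fold (adjusted p = 0.0392). PBK, a kinase active in mitosis, was measured at low signal, with 4.8, 4.89 and 4.7 in DED and 4.06, 3.93 and 4.27 in naive conjunctiva, and it rose 1.64-fold (adjusted p = 0.0103). MELK, a kinase abundant in dividing cells, read 5.20, 5.11 and 5.43 in DED against 4.53, 4.58 and 4.82 in naive arrays, a rise of 1.52-fold (adjusted p = 0.0281). PBK and MELK, together with NDC80, were in the dimmest 30% of all probe sets. The count of 8 was 3 without DED replicate 1, and the calls of 5 of these genes were lost when single arrays were left out: CCNA2 without any 1 DED array (adjusted p between 0.0644 and 0.0742), CCNB1 without any 1 DED array or naive replicate 3 (0.0669 to 0.0834), AURKA without DED replicate 1 or naive replicate 2 or 3 (0.05003 to 0.0525), MELK without DED replicate 1 or 3 or naive replicate 1 or 2 (0.0707 to 0.0965), and PLK1 without any 1 DED array or naive replicate 1 or 3 (0.0909 to 0.126).

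The spindle assembly checkpoint and its target rose together, with 6 of 6 measured genes higher in DED and a median log2 fold change of 0.69. TTK (MPS1), the kinase that starts checkpoint signalling at kinetochores, read 6.65, 6.48 and 6.35 in DED, against 5.64, 5.51 and 5.68 in naive conjunctiva. All DED arrays were above all naive arrays by at least 0.67, and TTK rose 1.84-fold (log2 0.88, SE 0.09, adjusted p = 0.00339). BUB1B (BUBR1), a component of the complex that inhibits the APC/C, gave 6.21, 5.99 and 5.97 in DED and 5.40, 5.36 and 5.27 in naive tissue. It rose 1.64-fold (adjusted p = 0.00499), with DED replicate 1 the highest array. BUB1, the kinase that recruits checkpoint proteins to kinetochores, had 6.06, 6.18 and 5.97 in DED, against 5.35, 5.61 and 5.43 in naive arrays, a rise of 1.52-fold (adjusted p = 0.0126).

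MAD2L1 (MAD2), which binds CDC20 while kinetochores are unattached, was tight within the naive arrays. Its log2 values were 8.43, 8.30 and 8.24 in DED and 7.66, 7.63 and 7.65 in naive conjunctiva, a rise of 1.60-fold (adjusted p = 0.0027). CDC20 itself, the APC/C activator, read 6.91, 7.03 and 6.81 in DED against 6.28, 6.10 and 6.26 in naive tissue. The groups were 0.53 apart, and CDC20 rose 1.63-fold (adjusted p = 0.00524). UBE2C, the ubiquitin-conjugating enzyme that works with the APC/C, changed least of the 6. Its values of 7.65, 7.57 and 7.58 in DED and 7.31, 7.21 and 7.26 in naive arrays were 0.26 apart, and it rose 1.27-fold (adjusted p = 0.0206). The call of UBE2C was lost without any 1 DED array or naive replicate 2 or 3 (adjusted p 0.0618 to 0.0787), and that of BUB1 without DED replicate 1 or naive replicate 3 (0.052 to 0.0537).

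At the kinetochore and centromere, 4 of the 5 measured genes rose, with a median log2 fold change of 0.73. CENPE, the kinesin that moves chromosomes towards the spindle equator, read 6.06, 5.77 and 5.81 in DED and 5.14, 4.92 and 5.13 in naive conjunctiva. Its DED arrays were all higher, by 0.63 at the nearest, and it rose 1.76-fold (adjusted p = 0.00654). CENPF, a large protein of the outer kinetochore, gave 6.56, 6.48 and 6.62 in DED, against 5.94, 5.81 and 5.71 in naive tissue, a rise of 1.66-fold (adjusted p = 0.00368). NDC80 and NUF2 form a dimer within the complex that binds the microtubule end. NDC80 had 5.26, 5.35 and 5.45 in DED and 4.73, 4.65 and 4.72 in naive arrays, with a rise of 1.57-fold (adjusted p = 0.00339). NUF2 varied more in both groups, with 6.73, 6.43 and 6.82 in DED against 6.10, 5.65 and 5.99 in naive conjunctiva. It rose 1.68-fold (adjusted p = 0.0338), but the call was lost without DED replicate 1 or 3 or any 1 naive array (0.0545 to 0.114). CENPA, the histone H3 variant that marks centromeres, did not pass. Its values of 5.14, 5.26 and 5.52 in DED and 4.98, 5.22 and 5.02 in naive conjunctiva overlapped, with a log2 difference of 0.23 (95% confidence interval -0.05 to 0.51, adjusted p = 0.307).

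Neither measured gene of the chromosomal passenger complex, which corrects faulty kinetochore attachments and later acts at the midzone, passed the threshold (0 of 2 by limma, with 1 at an unadjusted p under 0.05 and 0 by the analysis of variance). AURKB, its kinase, read 6.52, 6.65 and 6.58 in DED and 6.22, 6.51 and 6.23 in naive conjunctiva. Naive replicate 2 came within 0.01 of the lowest DED array, and the log2 difference was 0.26 (95% confidence interval 0.04 to 0.49, adjusted p = 0.169). CDCA8 (borealin), which targets the complex to centromeres, had 5.77, 5.79 and 6.32 in DED against 5.65, 5.79 and 5.86 in naive tissue. Only DED replicate 3 lay above the naive arrays, and the difference of 0.19 had an interval of -0.18 to 0.57 (adjusted p = 0.537). INCENP, the scaffold of the complex and not among the 35 genes, was looked up after these values had been seen. It read 6.31, 6.38 and 6.43 in DED and 6.43, 6.39 and 6.31 in naive arrays, with overlapping groups (adjusted p = 0.984).

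Motor proteins and microtubule-associated proteins of the spindle had the highest median log2 fold change of any role with more than 2 genes, 0.87. All 5 rose, and each of these calls held whichever array was left out. ASPM, a protein of the spindle poles, read 6.10, 5.95 and 5.93 in DED, against 5.0, 4.61 and 5.05 in naive conjunctiva. Naive replicate 2 was low within its group, and the groups were 0.88 apart. ASPM rose 2.15-fold (log2 1.11, SE 0.13, adjusted p = 0.00447). NUSAP1, which bundles microtubules around chromosomes, differed little within either group, with 6.97, 6.92 and 7.02 in DED and 6.06, 6.02 and 5.97 in naive tissue. The SD was 0.05 in both groups and the rise was 1.94-fold (adjusted p = 4.80e-04). KIF11 (Eg5), the kinesin that pushes spindle poles apart, gave 6.56, 6.50 and 6.55 in DED and 5.67, 5.53 and 5.81 in naive arrays, and it rose 1.82-fold (adjusted p = 0.00232). TPX2, which activates Aurora A on the spindle, had 7.0, 6.99 and 7.12 in DED, against 6.34, 6.18 and 6.27 in naive conjunctiva. The groups stood 0.65 apart, with a rise of 1.71-fold (adjusted p = 0.00199). KIF2C (MCAK), the kinesin that depolymerises microtubules at kinetochores, read 5.54, 5.51 and 5.73 in DED and 4.87, 5.0 and 4.69 in naive tissue, a rise of 1.67-fold (adjusted p = 0.00896).

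In the central spindle and at cytokinesis, 5 of 6 genes rose, with a median log2 fold change of 0.54. KIF20A (MKLP2), the kinesin that carries the passenger complex to the midzone, read 6.19, 6.11 and 6.12 in DED and 5.46, 5.36 and 5.14 in naive conjunctiva. It was the largest change of the 6, at 1.77-fold (adjusted p = 0.00413). RACGAP1, which forms the centralspindlin complex with KIF23, had 6.45, 6.53 and 6.46 in DED, against 5.95, 5.62 and 5.76 in naive arrays, a rise of 1.63-fold (adjusted p = 0.00741). KIF23 (MKLP1) itself read 7.70, 7.55 and 7.72 in DED and 7.29, 7.33 and 7.42 in naive tissue. Its groups did not overlap, but the log2 difference of 0.31 (95% confidence interval 0.14 to 0.48) missed the threshold (adjusted p = 0.0557), and it passed in 4 of 16 other settings (lowest adjusted p = 0.0086, highest 0.16). ECT2, the exchange factor that activates RhoA at the cell equator, gave 6.30, 6.29 and 6.44 in DED, against 5.52, 5.63 and 5.93 in naive conjunctiva, with naive replicate 3 the nearest to the DED arrays. The rise was 1.57-fold (adjusted p = 0.022).

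PRC1, which cross-links antiparallel microtubules, read 6.51, 6.61 and 6.71 in DED and 6.24, 6.17 and 6.11 in naive arrays, and rose 1.35-fold (adjusted p = 0.0191). ANLN (anillin), a scaffold of the contractile ring, had 7.49, 7.37 and 7.52 in DED against 7.07, 7.09 and 7.14 in naive tissue, and rose 1.28-fold (adjusted p = 0.0229). Both sets of arrays were separate, by 0.27 for PRC1 and 0.23 for ANLN. The count of 5 was 2 without DED replicate 3 or naive replicate 2, and the calls of 3 of these genes were lost when single arrays were left out: ECT2 without any 1 DED array or naive replicate 1 or 2 (adjusted p 0.0646 to 0.0809), PRC1 without DED replicate 2 or 3 or naive replicate 2 or 3 (0.0601 to 0.0708), and ANLN without DED replicate 1 or 3 or any 1 naive array (0.0594 to 0.0858).

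Both genes of mitotic chromosome structure rose. MKI67 (Ki-67), which coats mitotic chromosomes and is the usual marker of dividing cells in tissue, read 7.55, 7.55 and 7.59 in DED and 6.63, 6.38 and 6.49 in naive conjunctiva. The groups were 0.92 apart, and MKI67 rose 2.09-fold (log2 1.06, SE 0.08, adjusted p = 8.82e-04). TOP2A, the topoisomerase that disentangles sister chromatids, gave 7.28, 7.25 and 7.25 in DED, against 6.54, 6.44 and 6.26 in naive tissue. It rose 1.80-fold (adjusted p = 0.00247), with an SD of 0.02 in DED and 0.14 in naive arrays.

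**Figure D2:**
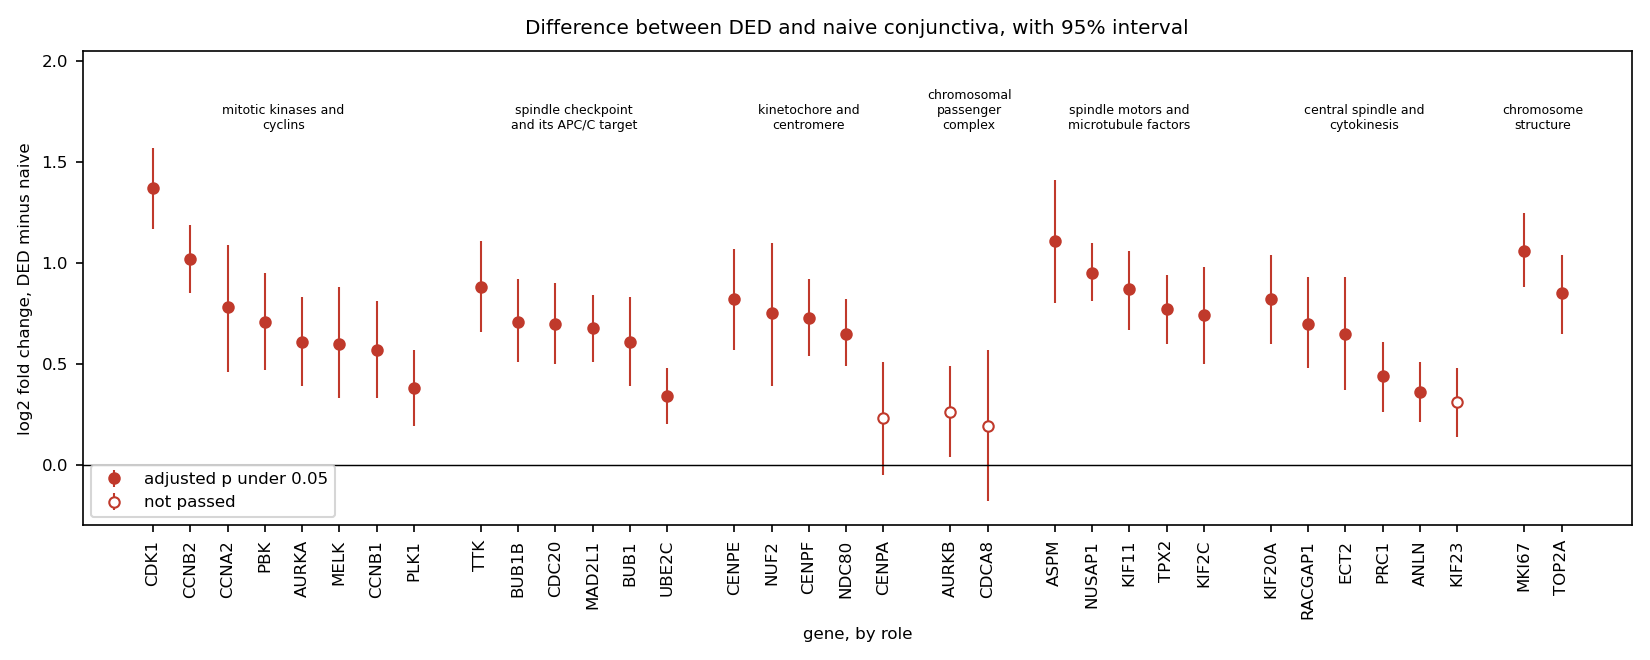
Log2 fold change, DED minus naive, of each of the 34 genes with its 95% confidence interval from limma, grouped by role, with filled circles for genes past an adjusted p under 0.05 and open circles for the others. The 30 genes that passed lie between 0.34 (UBE2C) and 1.37 (CDK1), and the intervals of CENPA and CDCA8 cross 0.

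The separation of the groups was also seen in the mean over all of the genes. The mean log2 value over the 34 genes was 6.53, 6.47 and 6.54 on the DED arrays, and 5.86, 5.80 and 5.85 on the naive arrays. The groups did not overlap in this mean, and arrays of 1 group lay closer to each other than to any array of the other group. DED replicate 2 was the lowest DED array for 18 of the 34 genes, while naive replicate 1 was the highest naive array for 17 and naive replicate 2 the lowest for 15. The same arrays held these places in 33.8%, 33.9% and 30.8% of all probe sets. The median SD of a gene was 0.093 among DED arrays and 0.125 among naive arrays, against 0.098 and 0.1 over all probe sets. The SD was larger in DED in 14 genes and larger in naive conjunctiva in 20.

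Close partners were set against each other by an exact permutation test (two-sided) of the difference between their changes, over 6 pairs. The pairs were not fixed beforehand and were picked with earlier results of these data known, so their p-values are a description only. With 3 arrays in each group an exact permutation test cannot go below p = 0.1, and that value was reached for CCNB1 and CCNB2 and for KIF23 and RACGAP1. CCNB1 changed by 0.45 less than CCNB2 on the log2 scale (CCNB1 minus CCNB2 -0.45, exact permutation p = 0.1, 0.3 after adjustment over the pairs). The difference between KIF23 and RACGAP1 was -0.39, with the same p-values. AURKA changed by 0.35 more than AURKB (exact permutation p = 0.2, adjusted 0.4). The remaining 3 pairs differed by 0.11 or less, with exact permutation p between 0.5 and 0.6: BUB1 minus BUB1B was -0.11, NDC80 minus NUF2 -0.09, and CENPE minus CENPF 0.08. None of the 6 differences passed after adjustment, which at this number of arrays no pair could.

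Beyond the 34 genes, 143 of 157 further genes of mitosis were measured, of which 26 rose, 1 fell and 116 did not pass, with a median log2 fold change of 0.08. The share that rose was 18.2%, beside 88.2% of the 34 genes and 4.41% of all probe sets. These lists, like the 34 genes, were chosen with earlier results of these data known, so the shares are a description only. The count of 26 was 15 without naive replicate 1, 16 without DED replicate 1 and 17 without naive replicate 2. Condensin, the complex that compacts chromosomes, had the highest share, with 5 of 8 subunits higher in DED and a median of 0.47. Among its genes NCAPG had mean log2 values of 5.95 ± 0.08 in DED and 5.03 ± 0.06 in naive conjunctiva (SD, n = 3 each), a rise of 1.89-fold (adjusted p = 9.99e-04, limma). NCAPG2 rose by 0.77 (adjusted p = 0.0155), SMC2 by 0.52 (0.0205) and NCAPH by 0.48 (0.0334) on the log2 scale. SMC4, named after its values had been seen because it is the fifth that passed, rose by 0.46 (0.0135). With any 1 array left out only 2 or 3 condensin genes passed, and NCAPG passed each time. The calls lost were those of NCAPG2 without DED replicate 1 or naive replicate 1 (highest adjusted p = 0.0647), SMC2 without any 1 DED array or naive replicate 1 or 3 (0.0721), NCAPH without any 1 array (0.112) and SMC4 without DED replicate 3 or naive replicate 2 (0.0544).

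Of 27 further kinetochore and centromere genes, 8 rose and 0 fell, with a median of 0.23. KNL1, the kinetochore scaffold that binds BUB1, averaged 5.66 ± 0.09 in DED and 4.89 ± 0.08 in naive tissue, and rose 1.70-fold (adjusted p = 0.00236). SKA1 and SKA3, of the complex that follows microtubule ends, rose by 0.76 (0.00431) and 0.65 (0.00913), and ZWILCH, which helps to bring dynein and MAD proteins to kinetochores, rose by 0.56 (0.00732). These 4 calls held whichever array was left out, although the count of 8 was 4 without naive replicate 1 or 2 and 5 without any 1 DED array. SPC25, a partner of NDC80 and NUF2 named after its values were seen, rose by 0.45 (adjusted p = 0.0172), at very low signal (mean 2.80 in DED and 2.36 in naive arrays). Its call was lost without DED replicate 1 or naive replicate 1 or 2 (highest adjusted p = 0.0675).

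The largest change of the further mitotic genes was that of CKAP2, a microtubule-associated protein listed with further kinesins and spindle factors. It averaged 6.18 ± 0.12 in DED and 4.99 ± 0.13 in naive conjunctiva, a rise of 2.28-fold (adjusted p = 0.00127). In that list 6 of 29 genes rose and 0 fell, with a median of 0.24. DLGAP5 (HURP), which stabilises kinetochore fibres, rose by 0.67 (adjusted p = 0.0141), CKAP2L by 0.61 (0.0169) and HMMR, a spindle and hyaluronan-binding protein, by 0.56 (0.0488). The call of HMMR was lost without any 1 DED array or naive replicate 1 or 2 (highest adjusted p = 0.145) and that of CKAP2L without DED replicate 1 or 2 or naive replicate 1 or 2 (0.0653), and the count of 6 was 3 without DED replicate 1 or naive replicate 1 or 2.

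Cytokinesis genes rose in 3 of 12 cases and fell in 0, with a median of 0.33, and these calls held without each array. ARHGAP11A, a GTPase-activating protein for RhoA, rose 1.69-fold (adjusted p = 9.03e-04), the formin DIAPH3 1.64-fold (0.00992) and SHCBP1 1.55-fold (0.00682). Of 14 genes of mitotic entry, MASTL (Greatwall), the kinase that blocks the phosphatase opposing CDK1, and CKS2, a CDK-binding subunit, rose by 0.68 (adjusted p = 0.00357) and 0.66 (0.00231). CDC25B, the phosphatase that first activates CDK1, fell by 0.28 (adjusted p = 0.0461), with log2 values of 7.97, 8.01 and 8.10 in DED and 8.35, 8.28 and 8.29 in naive conjunctiva. Its arrays did not overlap, but the call was lost without any 1 array (adjusted p 0.0697 to 0.139). The 14 genes of mitotic entry had a median of 0.03, with 4 higher and 3 lower at an unadjusted p under 0.05.

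In the list of further checkpoint proteins and APC/C subunits, 1 of 16 (6.25%, near the 4.41% of all probe sets) rose and 0 fell, with a median of 0.02 and 2 higher and 1 lower at an unadjusted p under 0.05. That gene was FBXO5 (EMI1), an inhibitor of the APC/C, at 1.45-fold (adjusted p = 0.00874). BUB3, the partner of BUB1 and BUB1B and looked up after its values were seen, read 8.75, 8.67 and 8.73 in DED and 8.79, 8.71 and 8.74 in naive tissue, with overlapping groups (log2 difference -0.03, adjusted p = 0.815). Of 16 genes of cohesin, separase and securin, 1 (again 6.25%) rose and 0 fell, with a median of 0.04. That gene was ESCO2, which acetylates cohesin in S phase, at 1.43-fold (adjusted p = 0.0137). Its call was lost without DED replicate 1 or naive replicate 1 or 2 (highest adjusted p = 0.0587).

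Regulators that switch mitotic transcripts on or off were measured as 21 genes, of which 0 rose and 0 fell by limma, with 2 higher and 0 lower at an unadjusted p under 0.05 and 0 by the analysis of variance. FOXM1, which activates late cell cycle genes, read 5.30, 5.32 and 5.09 in DED and 5.28, 4.93 and 4.73 in naive conjunctiva. These groups overlapped, with a log2 difference of 0.26 and an interval of -0.10 to 0.61 (adjusted p = 0.371). MYBL2, which works with the MuvB complex on the same class of genes, had 6.34, 6.42 and 6.74 in DED, against 6.22, 6.14 and 6.15 in naive arrays. Its groups were 0.12 apart and the difference of 0.33 did not pass (adjusted p = 0.142). E2F8, a repressor within the E2F family, had the largest difference of the list, 0.40 (adjusted p = 0.0582), and it passed in 4 of 16 other settings (lowest adjusted p = 0.0191, highest 0.162), among them without naive replicate 2 (0.041). E2F1, an activator at the G1/S transition, differed by -0.05 (adjusted p = 0.75). The list had a median log2 fold change of 0.03.

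**Figure D3:**
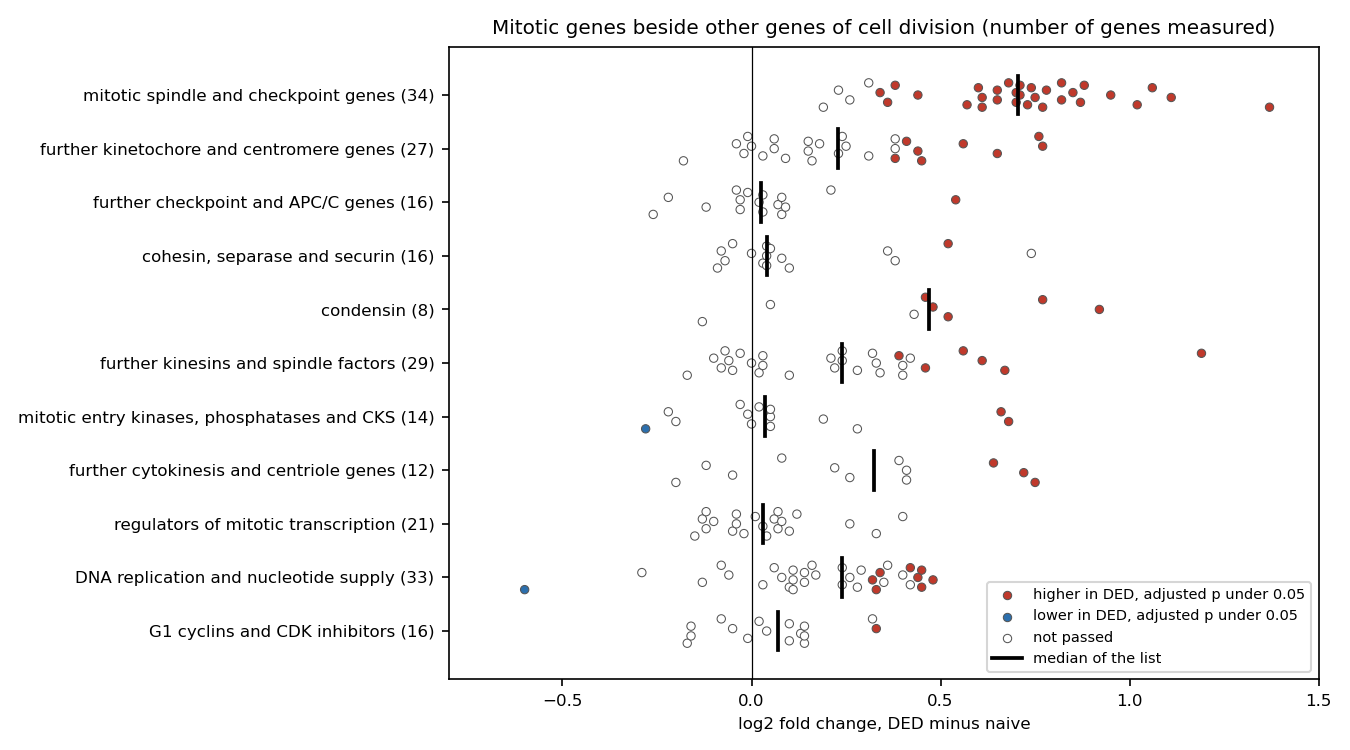
Log2 fold change, DED minus naive, of the measured genes in each list of cell division genes, with each point a gene (red higher and blue lower in DED at an adjusted p under 0.05, white not passed) and the bar the median of the list. The median was 0.71 for the 34 genes, between 0.02 and 0.47 in the lists of further mitotic genes, 0.24 for DNA replication and 0.07 for G1 cyclins and inhibitors.

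In the neighbouring phases of the cycle, DNA replication and nucleotide supply had 8 of 33 genes higher and 1 lower, with a median of 0.24. PCNA, the sliding clamp of DNA polymerase, read 9.02, 8.99 and 8.93 in DED, against 8.50, 8.53 and 8.56 in naive conjunctiva, a rise of 1.37-fold (adjusted p = 0.00639) with groups that did not overlap. CLSPN (claspin) rose by 0.48 (adjusted p = 0.04) and GINS1, a subunit of the replicative helicase, by 0.45 (0.0423) on the log2 scale. ORC6, a subunit of the origin recognition complex, fell by 0.60 (adjusted p = 0.00781), with 6.12, 6.02 and 6.26 in DED and 6.67, 6.80 and 6.73 in naive tissue, and it was lower in DED whichever array was left out. The count of 8 was 3 without any 1 DED array or naive replicate 2 and 4 without naive replicate 1 or 3. The call of CLSPN was lost without any 1 array (highest adjusted p = 0.126) and that of GINS1 without any 1 DED array or naive replicate 1 or 2 (0.128).

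G1 cyclins and inhibitors of cyclin-dependent kinases rose in 1 of 16 cases and fell in 0, a share of 6.25% that lies near the 4.41% of all probe sets. The gene was CDKN2C (p18), which rose by 0.33 (adjusted p = 0.0471), a call lost without any 1 array (0.0892 to 0.132). By the analysis of variance 0 genes of this list were higher and 1 was lower. At an unadjusted p under 0.05 in limma, 1 was higher and 1 lower, and the list had a median of 0.07. CDKN1A (p21), an inhibitor induced by p53, read 8.30, 8.12 and 8.31 in DED and 8.28, 8.07 and 8.27 in naive conjunctiva, with overlapping groups (log2 difference 0.04, adjusted p = 0.859). CDKN1B (p27), an inhibitor of quiescent cells, read 7.46, 7.57 and 7.65 in DED against 7.64, 7.67 and 7.86 in naive tissue, also with overlap (log2 difference -0.16, adjusted p = 0.33).

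Markers of several cell types moved in the same comparison, and in bulk tissue more cells of a type and more RNA per cell cannot be told apart. The counts of markers are to be read against the 4.41% of all probe sets that rose and the 2.69% that fell. General leukocyte markers rose in 9 of 9 cases, with a median log2 fold change of 0.67, and their mean log2 level was 8.21 to 8.29 over the DED arrays and 7.45 to 7.50 over the naive arrays. PTPRC (CD45), present on all nucleated blood cells, read 7.64, 7.65 and 7.74 in DED, against 6.61, 6.52 and 6.56 in naive conjunctiva (adjusted p = 3.36e-04). Monocyte and macrophage markers rose in 7 of 8 cases (median 0.69, mean level 8.50 to 8.58 in DED and 7.83 to 7.88 in naive arrays), led by CD14, which rose by 1.13 (adjusted p = 2.84e-04). Neutrophil markers rose in 4 of 7 (median 0.71), with S100A8 higher by 1.89 (1.98e-04). T cell markers rose in 3 of 7 (median 0.32, mean level 6.02 to 6.10 in DED and 5.68 to 5.72 in naive arrays), and CD3G rose by 0.73 (0.0074), although 1 of the 7 passed without DED replicate 3 or naive replicate 1 and 2 without any other array. B cell markers rose in 3 of 7 (median 0.22, mean level 6.52 to 6.60 in DED and 6.11 to 6.21 in naive arrays), and MS4A1 (CD20) rose by 1.00 (0.00253). Among markers of germinal centre B cells, which divide fast, 0 of 4 rose at either an adjusted or an unadjusted p under 0.05, and BCL6 fell by 0.35 (adjusted p = 0.0207), a call lost without any 1 DED array or naive replicate 1 or 2 (highest 0.0786).

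Basal epithelial markers rose in 1 of 7 cases, and in 2 without naive replicate 1, when ITGA6 passed (adjusted p = 0.0485), with a median of 0.06 and a mean level of 8.59 to 8.61 over the DED arrays and 8.48 to 8.55 over the naive arrays. The gene was KRT5, the basal keratin, which read 11.38, 11.50 and 11.33 in DED and 10.74, 10.84 and 10.85 in naive conjunctiva (adjusted p = 0.00496). Markers of the upper epithelial layers rose in 2 and fell in 2 of 10 cases (median -0.10), and KRT18, a simple-epithelium keratin, fell by 1.26 (adjusted p = 0.00123). Without DED replicate 1 or 2 or naive replicate 1, 0 of these 10 rose and 1 fell. Goblet cell markers rose in 1 and fell in 1 of 6 cases, with no marker lower when any 1 array was left out, and fibroblast markers rose in 3 and fell in 2 of 7 cases, although no fibroblast marker fell with any 1 array left out and 0 or 1 rose. Vascular endothelial markers rose in 2 and fell in 0 of 7. Lymphatic endothelial markers rose in 0 and fell in 2 of 5, CCL21 by 0.89 (adjusted p = 4.91e-04) and LYVE1 by 0.44 (0.0102), and 2 were lower with any 1 array left out. Adipocyte markers rose in 1 and fell in 2 of 5, FABP4 by 0.81 (0.00651) and LPL by 0.76 (0.00199), and with any 1 array left out 0 rose and 2 fell. Plasma cell markers rose in 1 of 6 and mast cell markers in 1 of 4, with 0 lower in both lists, and of 4 skeletal muscle markers 0 rose and 0 fell by limma, with 0 higher and 3 lower at an unadjusted p under 0.05 and 0 called by the analysis of variance. Erythroid markers rose in 2 of 7 cases, HBB2 by 3.08 (1.20e-05) and ALAS2 by 2.68 (1.56e-05), and melanocyte markers fell in 3 of 6, led by DCT, which fell by 1.63 (9.65e-04). These cell type markers were read on the same 6 arrays as the mitotic genes, and some lists rose while others fell or changed little. Their part in the result was not tested.

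**Figure D4:**
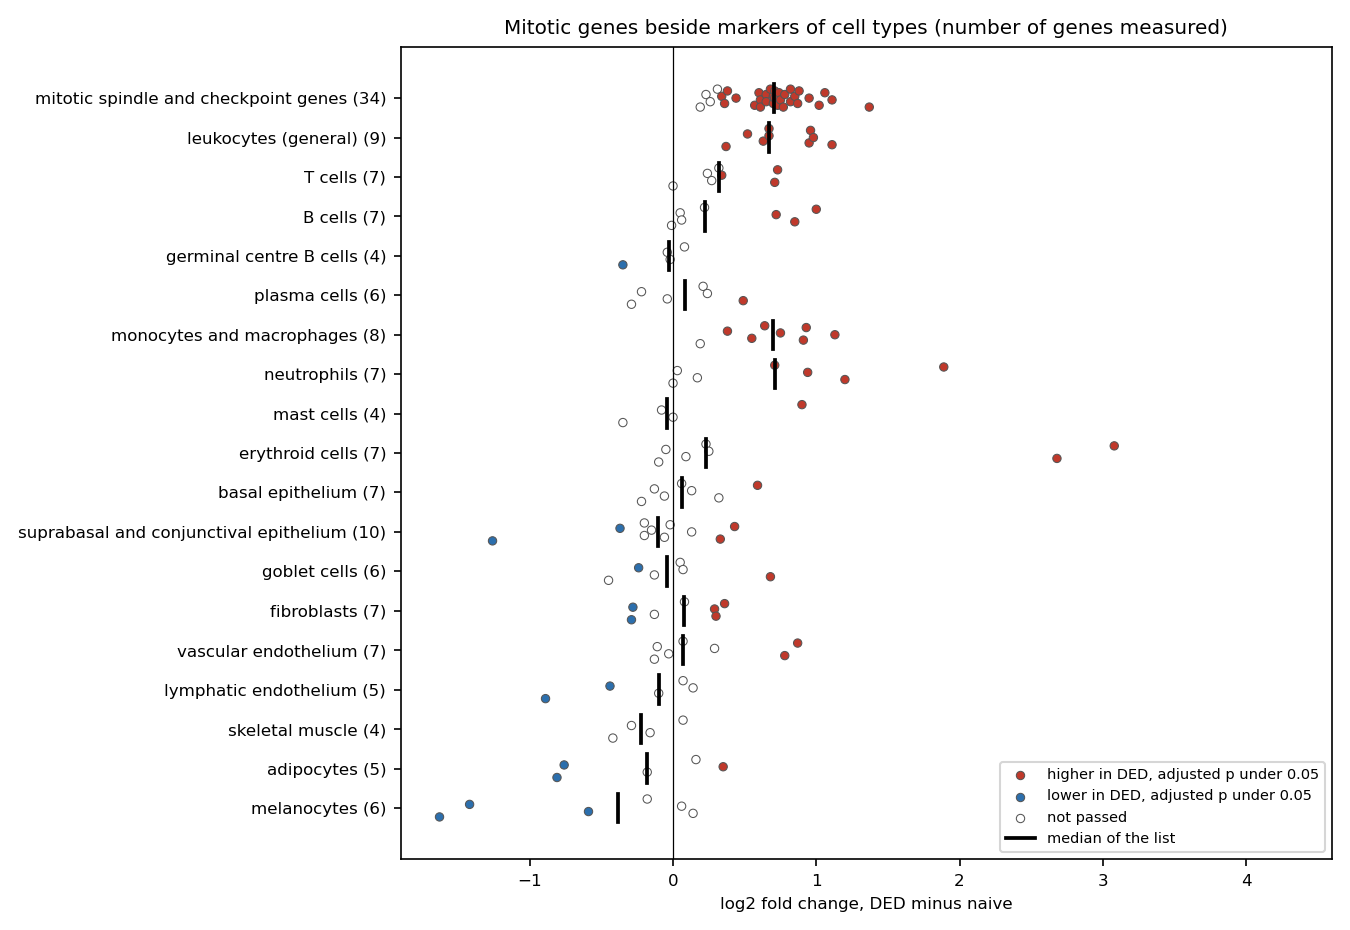
Log2 fold change, DED minus naive, of the measured markers of each cell type, with the 34 mitotic genes for comparison; each point is a gene (red higher and blue lower in DED at an adjusted p under 0.05, white not passed) and the bar is the median. The medians of general leukocytes (0.67), monocytes and macrophages (0.69) and neutrophils (0.71) lie near that of the 34 genes (0.71), and those of T cells (0.32), B cells (0.22) and basal epithelium (0.06) lie lower. The 7 neutrophil markers are spread between -0.0 and 1.89. Medians of the remaining lists lie between -0.38 (melanocytes) and 0.23 (erythroid cells). Whether a like median reflects a shared cell type was not tested.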

How the data were processed

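Pooled RNA of conjunctiva was hybridized to 3 arrays of DED and 3 arrays of naive rabbits. The deposited log2 values had been made by the authors with the Transcriptome Analysis Console (version not given in the sources used here), by Robust Multi-chip Analysis, which corrects for background, equalises the arrays by quantile normalization and reduces the probes of a set to 1 value. A change shared by all transcripts could therefore not be seen, and the number of arrays limits the precision. Levels of different probe sets were not compared.

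DED minus naive was fitted to all 23364 probe sets with lmFit and eBayes of limma 3.58.1 (R 4.3.3). P-values were adjusted over all of them by the method of Benjamini and Hochberg, and the threshold was 0.05. P-values measure the spread between pools. Symbols came from the platform annotation (1 symbol for 15795 probe sets, several for 397, none listed for 7172), and 0 columns of samples were left unused. The genes and lists were chosen with earlier results of these data known. Outside the 34 genes, the genes named were the up to 4 largest changes past the threshold in each list (or the largest difference where none passed), up to 3 in each cell type list, and FOXM1, MYBL2, E2F1, CDKN1A and CDKN1B, while genes named for other reasons are marked where they appear.

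The fit was tested on simulated data, 5 runs with 200 of 23364 probe sets changed. It recovered 41% of those shifted by 0.5 and 81.8% of those shifted by 1 on the log2 scale, at a mean of 7.6 false calls. The simulated noise was normal and independent between probe sets. Fewer probe sets were changed than were called in the real data, so these rates need not hold there. The alternatives were eBayes with a trend on intensity or made robust, the methods' one-way analysis of variance, removal of the dimmest 30% of probe sets, a second quantile normalization, centring on array medians, weights for arrays, a block for the replicate number, each array left out, only single-symbol probe sets, and averaging the probe sets of a symbol. Summaries and permutation tests were run in Python 3.11.15 (numpy 2.4.6, scipy 1.17.1, pandas 2.3.3), with matplotlib 3.10.9 for the figures. Sequences and genome positions were not used here.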

Additional observations from a re-analysis of the deposited data

How the results depend on the processing

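Of 541 results of the 34 genes under single alternatives, 474 kept their direction and their side of the threshold, and 0 changed direction. Of the 30 genes that rose, 17 passed in each setting that held them. The count of genes that rose was 31 where eBayes used an intensity trend, 28 after removal of the dimmest 30% of probe sets, 20 by the analysis of variance and 22 with the replicate block, and 20 to 25 with 1 array left out, and the count that fell was 0 in each. The median log2 fold change of the 34 genes was 0.66 to 0.74 with 1 array left out. Same-numbered arrays of the groups did not deviate together (correlations -0.0151, 0.0238 and -0.0566). Arrays of different numbers had correlations between -0.0481 and 0.0632. These values gave no sign that the replicate numbers pair the pools, but they cannot exclude it. The replicate block also leaves fewer degrees of freedom, and under it 490 probe sets were higher and 199 lower, against 1030 and 629 without it. With an intensity trend 1697 probe sets were higher and 1332 lower, without the dimmest 30% 1092 were lower, and with 1 array left out 558 to 684 were higher and 264 to 344 lower. Of the further mitotic genes, 16 rose by the analysis of variance, 16 with the block and 15 to 24 with 1 array left out, and 4 fell with an intensity trend, 3 without the dimmest 30%, 0 with the block and 0 to 0 with 1 array left out. Alternatives for named genes outside the 34 were chosen after seeing the data. With 1 array left out the difference of E2F1 was -0.08 to 0.01 and that of CDKN1A -0.03 to 0.1, and both signs turned without naive replicate 2, for differences that did not pass. Causes of these changes were not tested.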
